A study of Homo sapiens with 48 samples.

Results

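Peaks of the NF-κB subunits RELA and RELB, of the AP-1 subunit FOSL1 and of the histone mark H3K27ac were examined at 10 inflammatory cytokine genes: IL1A, IL1B, IL6, LIF, IL11, CSF1, CSF2, CSF3, IL23A and IL32. These are 10 of the 20033 protein-coding genes of the annotation (GENCODE 44, hg38), and they were given by name and not picked by a threshold. A peak was assigned to a gene when it overlapped the gene body or the 50 kb on either side of it. The ChIP-seq came from L3.6pl cells, a line established from human pancreatic ductal adenocarcinoma that is grown without the fibroblasts and immune cells of a tumour. There were 48 samples in 16 conditions of 3 replicates. RELA, RELB and H3K27ac were each profiled after vehicle (PBS) and after TNFα or TWEAK for 30 min or 6 h, and FOSL1 was profiled in vehicle alone. Each condition has 1 peak list called on merged replicates, so the values below carry no error between replicates and no test between conditions could be made. Peak names in the RELA list of 30 min of TNFα mention both replicate 1 and merging, and whether that list rests on all 3 replicates is not known.

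RELA is the main transactivating subunit of canonical NF-κB signaling, which TNFα triggers within minutes, whereas RELB acts mainly with p52 in the slower noncanonical pathway that TWEAK can induce. Both bind related κB sequences in promoters and enhancers, and acetylation of histone H3 at lysine 27 marks such elements when they are active. Genes of secreted inflammatory cytokines are among the best known NF-κB targets. The 10 genes encode ligands of different receptor families: the IL-1 family (IL1A, IL1B), the family that signals through gp130 (IL6, LIF, IL11), the colony-stimulating factors (CSF1, CSF2, CSF3), a subunit of interleukin 23 (IL23A), and IL32, which has no close relative among them.

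The RELA and RELB peaks at these genes fell on 30 separate sites. For each gene that has one, the strongest RELA site after 30 min of TNFα with a κB or AP-1 match and no untranslated exon in the stretch is shown, to let the letters at the summits be compared. The IL32 site is a weak one, called in 1 list with a fold enrichment over input of 4.12 at percentile 9.83, and stands here because the IL32 promoter stretch overlaps an untranslated exon. A further stretch from the IL23A promoter, chosen after its values were seen, holds both kinds of match. Each line gives the hg38 plus strand from 50 bp before to 50 bp after the RELA summit of 30 min of TNFα. Capitals mark matches to the κB consensus or to the AP-1 motif TGANTCA that lie whole within the stretch, on either strand, and overlapping κB matches run together.
CSF1, 18.1 kb upstream, chr1:109892668-109892768: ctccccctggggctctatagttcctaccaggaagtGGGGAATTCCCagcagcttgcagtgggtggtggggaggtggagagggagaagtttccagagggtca
IL1B, 24.7 kb downstream, chr2:112812069-112812169: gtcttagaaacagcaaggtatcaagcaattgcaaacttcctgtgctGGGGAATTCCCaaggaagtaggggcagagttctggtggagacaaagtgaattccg
LIF, 4.2 kb upstream, chr22:30250904-30251004: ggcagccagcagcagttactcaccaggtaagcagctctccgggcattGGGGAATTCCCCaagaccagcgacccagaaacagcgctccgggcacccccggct
IL23A, 38.4 kb upstream, chr12:56300419-56300519: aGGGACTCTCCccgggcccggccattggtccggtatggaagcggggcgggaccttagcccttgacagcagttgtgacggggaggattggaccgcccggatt
IL32, 30.5 kb downstream, chr16:3096051-3096151: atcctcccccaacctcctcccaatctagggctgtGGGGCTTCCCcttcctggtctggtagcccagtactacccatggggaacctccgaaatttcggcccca
IL23A, 87 bp upstream, chr12:56338747-56338847: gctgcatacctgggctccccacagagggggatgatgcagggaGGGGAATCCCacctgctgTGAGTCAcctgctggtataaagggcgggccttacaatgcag

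The stretches of CSF1, IL1B and LIF share an identical core, GGGGAATTCC followed by at least 1 further C, and in each of them it lay at or beside the summit. The centre of its first κB match was 10 bp before the CSF1 summit, 1 bp after the IL1B summit and 2 bp after the LIF summit. The strongest IL32 site, at its promoter, lies in an untranslated exon of an alternative transcript, and only its overlapping κB matches are given. They are GGGAGTTTCC at chr16:3065304-3065313 and, on the other strand, the match at chr16:3065305-3065314 (plus-strand letters GGAGTTTCCC). Their centres lie 13 bp and 12 bp before the summit. In the 200 bp around the summit, 14 of the 30 sites held the κB consensus and 5 held the AP-1 motif. Over all RELA regions of 30 min of TNFα the κB consensus was in 34.8% and the AP-1 motif in 14.4%. The shares were 4.26% and 5.27% of the RefSeq promoter windows (hg38) cut to the same length. Of the 27 sites in that RELA list, 13 held the κB consensus (48.1%) and 4 the AP-1 motif (14.8%). Outside tandem repeats, a closer background described below, 46.2% and 18.9% of the regions of that list held them, so the κB share was near its background. In the FOSL1 list the shares were 3.41% and 44.4%. A match describes the letters in the window and not a measured contact.

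At 30 min of TNFα, 9 of the 10 cytokine genes had a RELA peak, with 48.1% of all protein-coding genes as background. The exception was IL6, although with windows of 100 kb on either side all 10 genes, IL6 included, had a RELA peak in this list. The share of all genes with a peak in windows of 100 kb is not given here, and the 48.1% does not apply to them. At 6 h of TNFα the count was 8 genes (background 26.8%), as IL11 had no peak in that list. The vehicle list had RELA peaks at 4 genes, namely IL1A, IL1B, LIF and IL23A (background 5.05%). IL1A and IL1B were both counted through the same peak there, and through the same peaks at 6 h of TNFα and 30 min of TWEAK. After 30 min of TWEAK, RELA peaks were called at 6 genes, the 4 of the vehicle list with IL32 and CSF1 (background 7.58%). After 6 h of TWEAK they were at 2 genes, LIF, which was in the vehicle list, and CSF1, which was not (background 5.12%). The share of cytokine genes was above the background in each of the 5 RELA lists. Their gene bodies had a median length of 6272 bp, against 27471 bp over all genes. Whether window length or neighbouring genes in the windows bear on these shares was not tested.

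RELB peaks were fewer. After 6 h of TWEAK, 6 of the 10 genes had one (background 13.6%), namely IL1A, IL1B, LIF, CSF3, IL23A and IL32. After 6 h of TNFα, 2 genes did, LIF and IL32 (background 3.87%). No RELB peak was called at any of the 10 genes in vehicle (background 3.06%), at 30 min of TNFα (background 1.59%) or at 30 min of TWEAK (background 1.41%). IL6, IL11, CSF1 and CSF2 had no RELB peak in any of the 5 lists. IL1A and IL1B were both counted through the same RELB peaks.

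**Figure D1:**
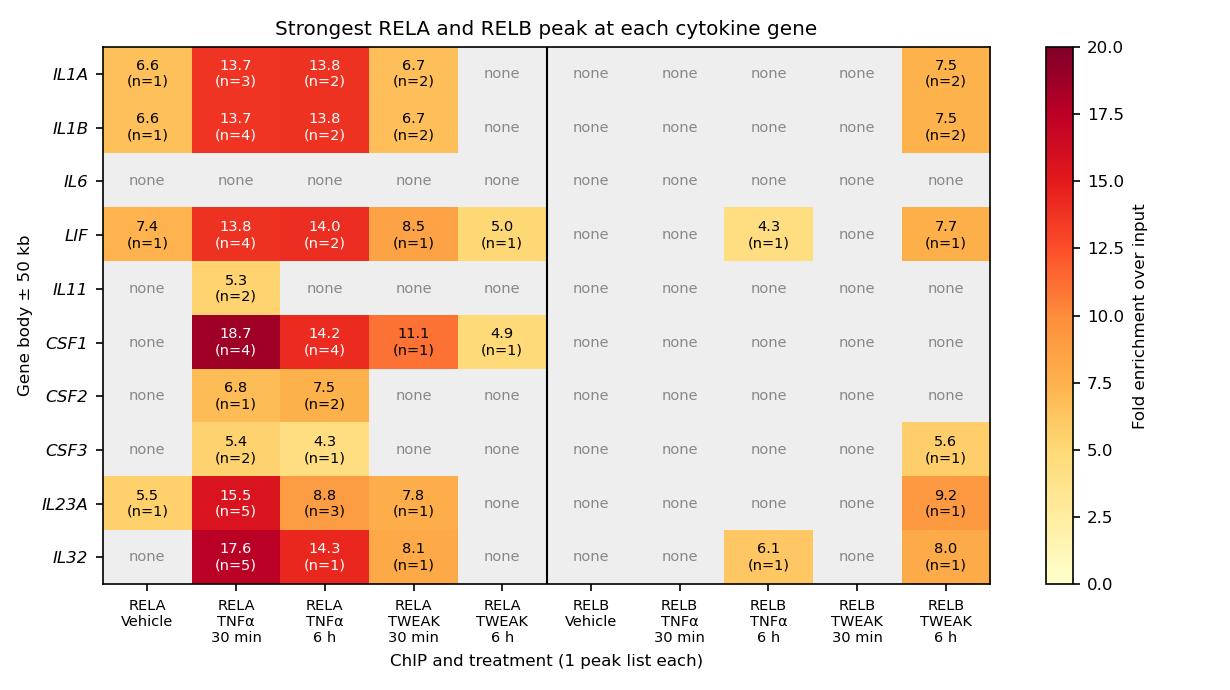
Fold enrichment over input of the strongest RELA or RELB peak at each cytokine gene (rows, gene body ± 50 kb) in each of the 10 peak lists (columns), with the number of peaks in brackets. Values range from 4.31 to 18.7, IL6 has no peak in any list, and the RELB columns are filled only after 6 h of treatment. IL1A and IL1B share their strongest sites.

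FOSL1 and H3K27ac peaks were common around all genes at this window size. All 10 cytokine genes had a FOSL1 peak (background 90.5%). H3K27ac peaks were at all 10 in vehicle (background 91.5%), after 30 min of TNFα (background 90.2%), after 30 min of TWEAK (background 90.6%) and after 6 h of TWEAK (background 91.1%). After 6 h of TNFα they were at 9 of 10 (background 91.5%), and IL6 had none. Within 500 bp of the canonical start site, RELA peaks were called at 5 of the 10 genes at 30 min of TNFα (6.95% of all genes) and at 4 at 6 h (2.78%), and H3K27ac in vehicle was called at 5 of 10, against 61.1% of all genes. H3K27ac was at 5 start sites after 30 min of TNFα (59.2% of all genes), at 7 after 6 h (60.9%), and at 6 after 30 min of TWEAK (59.8%) and after 6 h (60.7%). FOSL1 peaks were at 4 of the 10 start sites, and 40% of all genes had one.

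**Figure D2:**
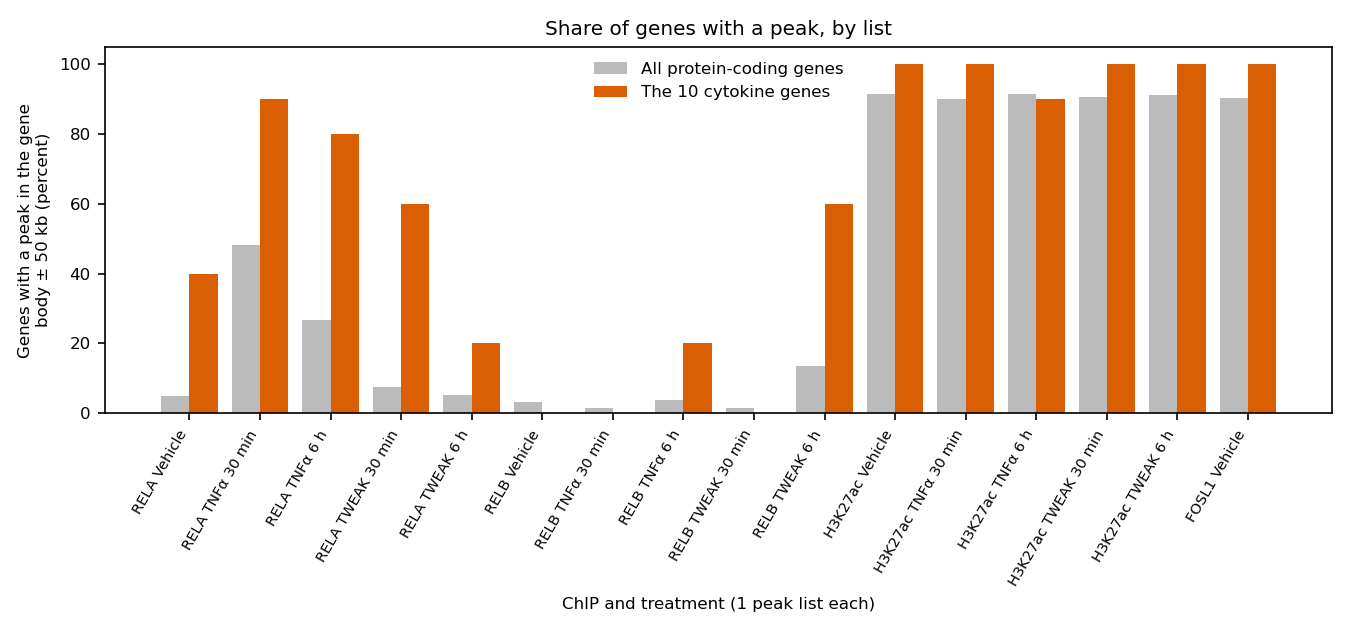
Share of genes with at least 1 peak in the gene body ± 50 kb in each list (vertical axis, percent) for all 20033 protein-coding genes in grey and the 10 cytokine genes in orange. The orange bars stand above the grey ones in the 5 RELA lists and in RELB at 6 h of TNFα and of TWEAK, are at 0 in the other 3 RELB lists, and are close to the grey ones for H3K27ac and FOSL1.

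The IL-1 genes shared their strongest sites. IL1A (chr2:112773925-112784493) and IL1B (chr2:112829751-112836816) are neighbours on the minus strand and encode the agonists of the IL-1 receptor. Their windows overlap, so the sites between them count for both. The strongest lay 24.7 kb downstream of the IL1B start, in intergenic sequence with its summit at position 112812119. Its RELA fold enrichment was 6.63 in vehicle, 13.7 and 13.8 after 30 min and 6 h of TNFα, and 6.66 after 30 min of TWEAK. No RELA peak was called there at 6 h of TWEAK, when RELB was called with 7.46. The RELA peak was at percentile 65.8 of its list in vehicle and at percentiles 93.9 and 95.3 after TNFα. These lists held 3004, 11266 and 7294 regions. Lists of different length or antibody have no common scale. Here and below, folds and percentiles of different lists stand side by side as a description, and a difference between them is not a measured change.

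A second intergenic site lay 22.2 kb downstream of the IL1B start. RELA was called there at 12.4 and 7.39 after 30 min and 6 h of TNFα and at 6.54 after 30 min of TWEAK, and RELB at 6.49 after 6 h of TWEAK. It was not in the vehicle list. A site 9.9 kb upstream of IL1A had a RELA peak of 11.99 at 30 min of TNFα, at percentile 90.5, and none in any other RELA or RELB list. At the IL1B promoter, 267 bp upstream of the start, the RELA peak of 30 min of TNFα was weak, with 5.31 at percentile 36.9, and it too was in that list alone. H3K27ac was called at these 4 sites in all 5 lists, vehicle included. At the IL1A start itself H3K27ac was called after TNFα alone, with 2.37 at 30 min and 2.53 at 6 h.

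Of the gp130 family, LIF had the most peaks, and IL11 and IL6 had few or none. LIF (chr22:30240453-30246759, minus strand), a ligand that supports stem cell self-renewal, had the site called in the most lists, 7 of 10. It lay 4.2 kb upstream of the start in intergenic sequence with its summit at position 30250954. RELA was called with 7.40 in vehicle, with 13.8 and 14.0 after 30 min and 6 h of TNFα, and with 8.46 and 5.04 after 30 min and 6 h of TWEAK. RELB was called at 4.31 after 6 h of TNFα and at 7.69 after 6 h of TWEAK. The RELA peak was at percentile 78.2 of the list at 30 min of TWEAK, at percentile 33.6 at 6 h and at percentile 75.9 in vehicle. FOSL1 overlapped this site weakly, at percentile 4.03 of its list. H3K27ac was within 500 bp of the summit at 30 min of TNFα alone, and with a fold enrichment of 1.46 that peak was among the weakest of its list, at percentile 0.109.

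LIF had 3 more sites. The one 50.4 kb downstream carried RELA at 8.62 and 8.54 at 30 min and 6 h of TNFα, with H3K27ac in every list. The remaining 2 were called at 30 min of TNFα alone, 39.8 kb downstream with 4.11 and 41.5 kb upstream with 6.75. The last of these lies 1206 bp from the CASTOR1 start, inside an intron of that gene. The LIF window also contains OSM, another gp130 ligand, which therefore shares the site 4.2 kb upstream of LIF.

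IL11 (chr19:55364382-55370463, minus strand), which acts on fibroblasts and epithelium, had RELA peaks at 30 min of TNFα alone. The peak 6.0 kb upstream was called with 5.32 and lies 380 bp from the TMEM190 start, and the peak 42.8 kb downstream was called with 4.23 and lies nearest to TMEM150B. Neither was nearest to IL11, and no H3K27ac peak was within 500 bp of the IL11 start in any list. At IL6 (chr7:22725884-22732002), the prototypical acute-phase cytokine, no RELA or RELB peak was called in any of the 10 lists. H3K27ac at IL6 was limited to a single peak in each of 4 lists, of 268 bp in vehicle, 545 bp at 30 min of TNFα, 370 bp at 30 min and 289 bp at 6 h of TWEAK. The peak of 30 min of TNFα spanned −6207 to −5663 bp from the start, and the other 3 lay within 1000 bp upstream of it. A single FOSL1 peak of 136 bp was called 4265 bp downstream, with 3.90. With the depth unknown, a missing peak at IL6 says only that none passed the authors' threshold within 50 kb of the gene, and the RELA list of 30 min of TNFα has one within 100 kb.

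**Figure D3:**
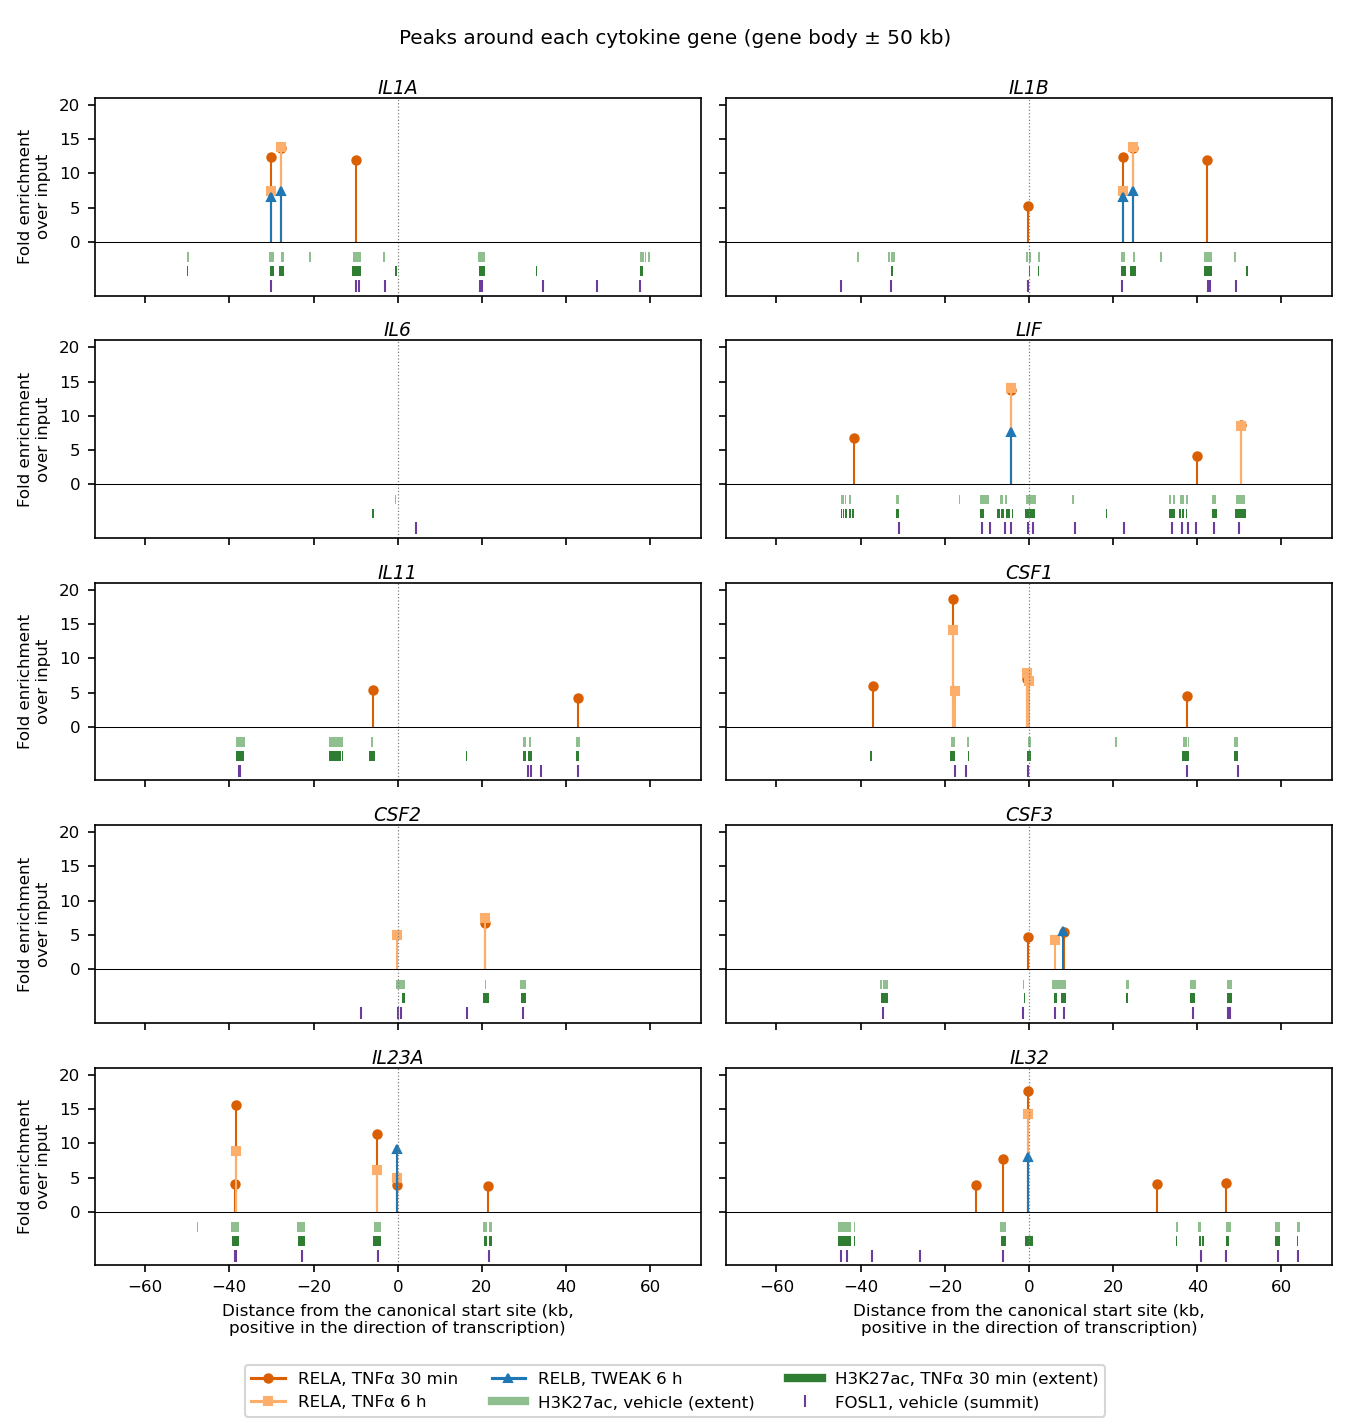
Peaks around the 10 cytokine genes, plotted by distance from the canonical start site (kb, positive in the direction of transcription). Stems give the fold enrichment over input of RELA peaks at 30 min and 6 h of TNFα and of RELB peaks at 6 h of TWEAK, bars below give the extent of H3K27ac peaks in vehicle and at 30 min of TNFα, and ticks give FOSL1 summits. RELB stems stand on RELA stems at IL1A, IL1B, LIF, CSF3, IL23A and IL32, and the IL6 panel has no stem.

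The colony-stimulating factors differed from each other. CSF1 (chr1:109910242-109930992), the growth factor of macrophages, had the strongest RELA peak of all 10 genes. It lay in intergenic sequence 18.1 kb upstream of the start, with its summit at position 109892718. RELA was called at 18.7 and 14.2 after 30 min and 6 h of TNFα and at 11.1 and 4.88 after 30 min and 6 h of TWEAK. These values put it at percentiles 98.6, 95.9, 91.1 and 29.7 of the lists, in the same order. It was in neither the vehicle list nor any RELB list, and no FOSL1 peak overlapped it. H3K27ac was already there in vehicle, with a fold enrichment of 2.78 over 854 bp. It was 4.02 over 1162 bp at 30 min and 3.72 over 1076 bp at 6 h of TNFα, and 2.68 over 767 bp and 3.40 over 678 bp after TWEAK.

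At the CSF1 promoter, 430 bp upstream of the canonical start and 87 bp from an alternative one, RELA was called at 7.06 and 7.82 after 30 min and 6 h of TNFα, and not after TWEAK. This site held both a κB and an AP-1 match and overlapped a FOSL1 peak. The remaining CSF1 sites were each in 1 list. Those 37.1 kb upstream and 37.5 kb downstream were called at 30 min of TNFα with 5.93 and 4.57, and one 17.6 kb upstream was called at 6 h of TNFα with 5.20.

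CSF2 (chr5:132073789-132076170), which encodes GM-CSF, had RELA peaks after TNFα alone. The site 20.8 kb downstream was called at 6.83 after 30 min and at 7.52 after 6 h. H3K27ac there was 289 bp long in vehicle with 2.54, 1366 bp with 3.16 at 30 min of TNFα and 1832 bp with 3.25 at 6 h. In the TWEAK lists no H3K27ac peak was called at this site. At the CSF2 promoter, 117 bp upstream, a RELA peak of 5.05 appeared at 6 h of TNFα and in no other list. The CSF2 window also holds IL3, another hematopoietic growth factor.

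CSF3 (chr17:40015361-40017813), which encodes G-CSF, the growth factor of neutrophils, had weak peaks throughout. Its promoter site 205 bp upstream was called for RELA at 30 min of TNFα with 4.65, and H3K27ac was within 500 bp of it at 6 h of TNFα alone, with 2.59. In intron 19 of the neighbouring gene MED24, 8.2 kb downstream of CSF3, RELA at 30 min of TNFα was called with 5.45 and RELB at 6 h of TWEAK with 5.65. In intron 23 of MED24, 6.2 kb downstream, RELA was called at 6 h of TNFα with 4.31. Both of these intronic sites overlapped FOSL1 and carried H3K27ac in all 5 lists.

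IL23A (chr12:56334174-56340410) encodes the p19 subunit of interleukin 23, which sustains IL-17-producing T cells. Its strongest RELA site lay 38.4 kb upstream, 139 bp from the start of CS, the gene of citrate synthase. RELA was called there at 5.54 in vehicle, 15.5 and 8.84 after 30 min and 6 h of TNFα and 7.79 after 30 min of TWEAK. A site 4.9 kb upstream of the canonical start is 228 bp from an alternative IL23A start and 54 bp from the PAN2 start, in the first exon of PAN2. RELA was called at 11.4 and 6.14 there after 30 min and 6 h of TNFα.

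The IL23A promoter site, 87 bp upstream of the start, was singled out after its values were seen. RELA was at 3.87 after 30 min and 4.92 after 6 h of TNFα, at percentiles 6.24 and 32.1 of those lists. RELB after 6 h of TWEAK was at 9.16, at percentile 82.7, the strongest RELB peak at any of the 10 genes in that list. It was also the only one of the 6 RELB sites with an AP-1 match within 200 bp around the summit. No FOSL1 peak overlapped it and no H3K27ac peak was within 500 bp in any list. The last 2 IL23A sites, 38.7 kb upstream at the CS promoter and 21.5 kb downstream at 277 bp from the STAT2 start, were called at 30 min of TNFα alone with 4.002 and 3.79.

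IL32 (chr16:3065297-3082192), an inflammatory cytokine with no mouse counterpart, had its strongest site at the promoter, 318 bp upstream of the canonical start and at the start of an alternative transcript. RELA was called there at 17.6 and 14.3 after 30 min and 6 h of TNFα and at 8.06 after 30 min of TWEAK. RELB was called at 6.15 after 6 h of TNFα and at 8.02 after 6 h of TWEAK. Vehicle had neither. H3K27ac was not called at this promoter in vehicle and was called in all 4 treated lists. The peak was 1855 bp long at 30 min and 1580 bp at 6 h of TNFα, and 771 bp and 649 bp at the same times of TWEAK, with fold enrichments between 2.88 and 3.13. No FOSL1 peak overlapped the site. The other 4 IL32 sites were called at 30 min of TNFα alone, with 3.85 to 7.64, and 1 of them was nearest to IL32.

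**Figure D4:**
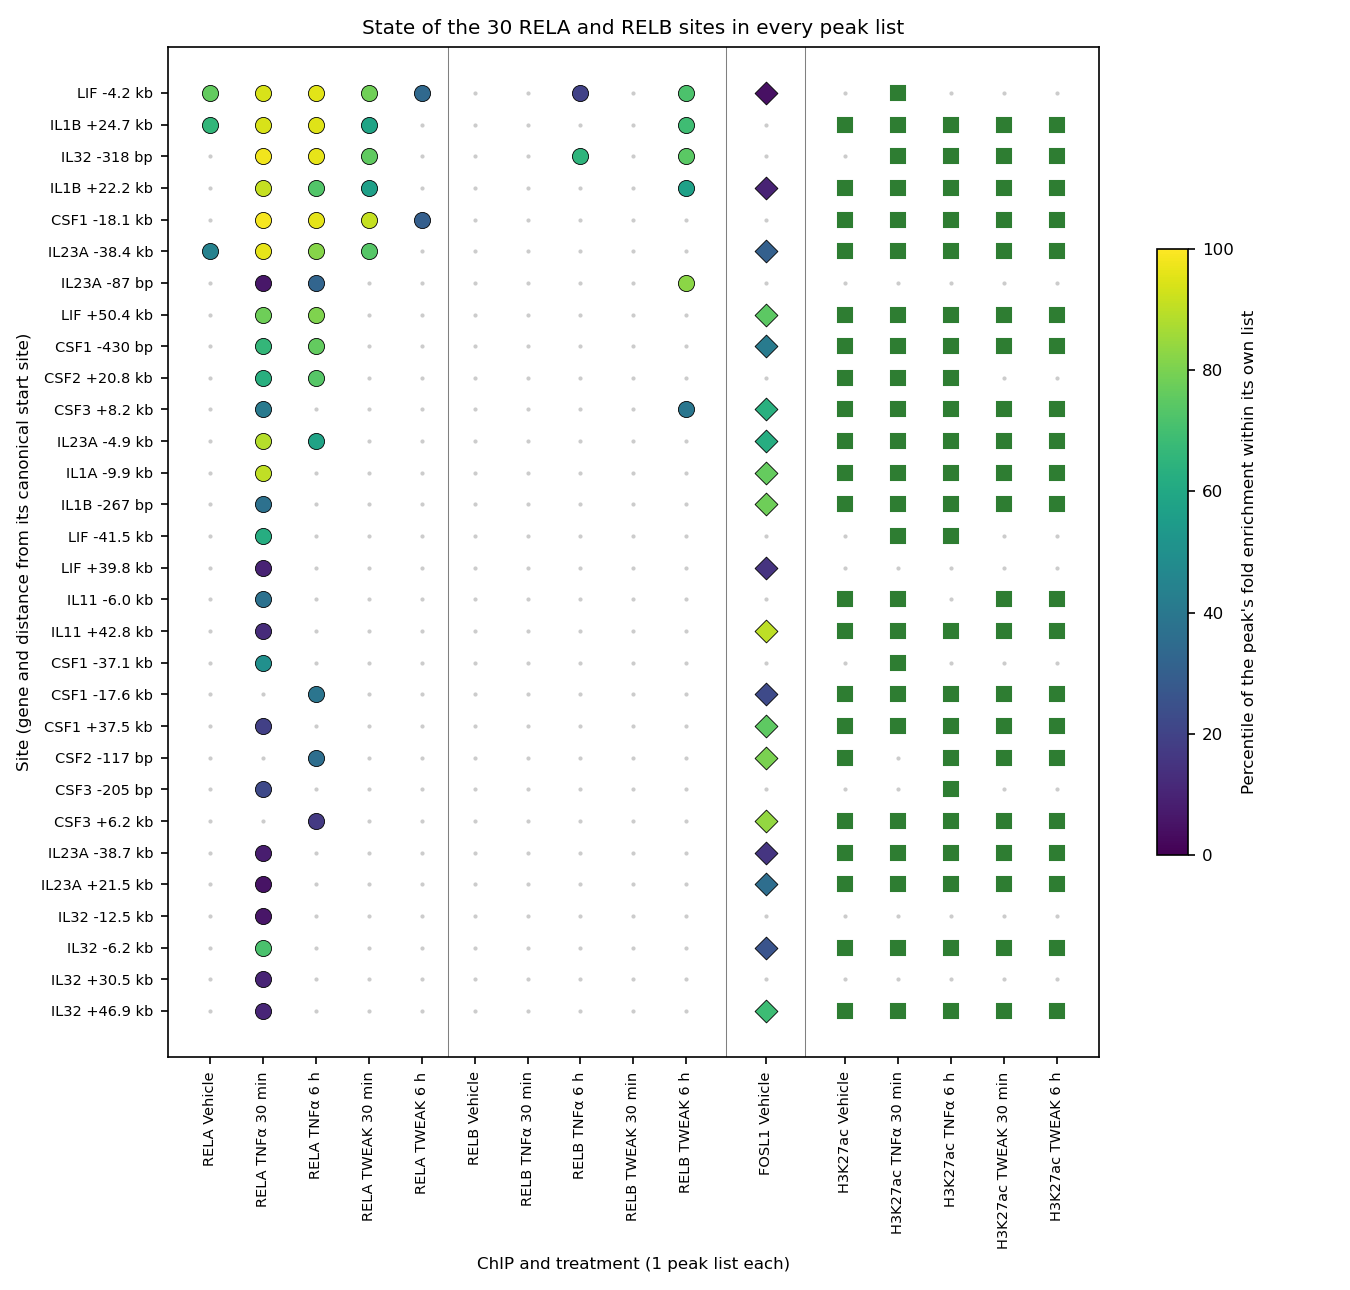
State of the 30 sites (rows, named by gene and distance from its canonical start site) in the 16 lists (columns). Circles mark RELA or RELB peaks and diamonds overlapping FOSL1 peaks, coloured by the percentile of the peak's fold enrichment within its own list, and squares mark H3K27ac within 500 bp of the summit. The site upstream of LIF is called in 7 lists, and 18 sites are called in 1 list.

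Across the 30 sites, RELB was called at 6, and each of these was also in at least 1 RELA list, so none was called for RELB alone. All 6 were in the RELA list of 30 min of TNFα, as were 76.1% of all 4052 regions of the RELB list of 6 h of TWEAK, and 5 of the 6 were in that of 6 h of TNFα, against 80.7%. Peaks had to overlap to form a site, which by itself keeps their summits near each other. At sites with a RELA peak of 30 min of TNFα, the strongest peak of each other list was compared with it. Those 30 RELA and RELB summits were a median of 14 bp and at most 63 bp from it. Left out was a second, weaker RELA peak of 6 h of TNFα at the CSF1 promoter, called with 6.71. Its summit was at −41 bp from the start, farther from the summit of 30 min than any of the 30. Tandem repeats, stretches in which a short unit recurs, held 26.3% of all RELA regions of 30 min TNFα and none of the 30 cytokine sites, so the regions outside them are the closer background. The 76.1% and 80.7% above were taken without leaving out such repeats. In all, 15 sites were called in RELA at 30 min of TNFα and in no other list (55.6% of 27), against 49.2% of all regions and 62.7% of those outside tandem repeats. IL1A, IL1B and IL23A had the same pattern of called and not called over the 10 lists, which for IL1A and IL1B follows from their shared sites.

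The 27 RELA regions of 30 min of TNFα had a median fold enrichment of 5.93, equal to that of all 11266 regions at 3 significant digits. Of the 27, 11 were called again at 6 h of TNFα (40.7%, exact 95% interval 22.4 to 61.2), against 45.2% of all regions and 35.3% of those outside tandem repeats. FOSL1 overlapped 16 (59.3%, exact 95% interval 38.8 to 77.6), against 58.0% and 48.8%. The intervals cover counting error only and treat the regions as independent, although several lie at the same gene. Each holds both of its background shares, which is not a test of a difference.

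The regions were also split by their strength within the list. In the strongest 10% of the list were 7 of the 27 regions (25.9%), against 12.1% of the regions outside tandem repeats. They were the CSF1 site 18.1 kb upstream, the IL32 promoter, the IL23A site 38.4 kb upstream and the LIF site 4.2 kb upstream. Both IL1B sites downstream and the IL1A site 9.9 kb upstream were also among them. Of these 7, 6 were also called for RELA at 30 min of TWEAK, whereas 0 of the other 20 were. Over all RELA regions outside tandem repeats the shares were 50.1% and 1.90%. RELB at 6 h of TWEAK was called at 4 of the 7 and 2 of the 20, against 51.1% and 10.8%.

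All 7 regions that were called in 2 or more other lists held the κB consensus, against 68.9% of such regions outside tandem repeats. Of the 15 called in no other list, 3 held it, against 37.4%. For FOSL1 the order was the other way round: 3 of the 7 overlapped a FOSL1 peak (69.9% of such regions outside tandem repeats), and 9 of the 15 did (41.7%). With so few sites these counts are a description.

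H3K27ac was called within 500 bp of the summit at 21 of the 30 sites in vehicle, at 24 and 23 after 30 min and 6 h of TNFα, and at 21 after either time of TWEAK. At 18 sites it was called in all 5 lists. Of the 27 sites with RELA after 30 min of TNFα, 66.7% had H3K27ac in vehicle. This compares with 60.1% of all regions of that list and 63.2% of those outside tandem repeats. After 30 min and 6 h of TNFα the shares were 81.5% against 71.2% and 74.1% against 67.1% of all regions. After TWEAK they were 66.7% against 63.3% at 30 min and 66.7% against 60.5% at 6 h. Among the 27 regions with RELA after 30 min of TNFα, 4 had H3K27ac at that time and not in vehicle, and 0 had it in vehicle alone. The gains were at the IL32 promoter, at the LIF sites 4.2 kb and 41.5 kb upstream and at the CSF1 site 37.1 kb upstream. The gains were 14.8% of the 27, and over all RELA regions of the list 13.1% were gained and 2.03% lost. Shares over all regions in this paragraph include those in tandem repeats unless stated. At 6 h of TNFα, 3 of the 27 were gained (IL32 promoter, CSF3 promoter, LIF 41.5 kb upstream) and 1 was lost, 6.0 kb upstream of IL11, which is 11.1% and 3.70%, against 9.48% and 2.49% over all regions. At 30 min and at 6 h of TWEAK the only gain was the IL32 promoter, and the only loss was the CSF2 site 20.8 kb downstream, each 3.70% of the 27. Over all regions 6.63% were gained and 3.46% lost at 30 min of TWEAK, and 4.54% and 4.09% at 6 h.

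H3K27ac peaks covered 66491 bp of the 1030119 bp in the windows in vehicle, or 6.45%. The covered length was 0.974 times that of vehicle at 30 min of TNFα, when the whole list covered 0.813 times as much of the genome as in vehicle. At 6 h of TNFα it was 1.10 times, against 1.00 for the genome. After TWEAK it was 0.895 times at 30 min and 0.881 times at 6 h, against 0.845 and 0.837. At CSF2 the covered length was 4134 bp in vehicle, 3617 bp at 30 min and 8304 bp at 6 h of TNFα, and 3071 bp and 3807 bp after TWEAK. The list of 6 h of TNFα held CSF2 peaks between −8802 and −7302 bp and between 12161 and 13195 bp from the start that were in no other list, beside the longer peak at the RELA site.

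**Figure D5:**
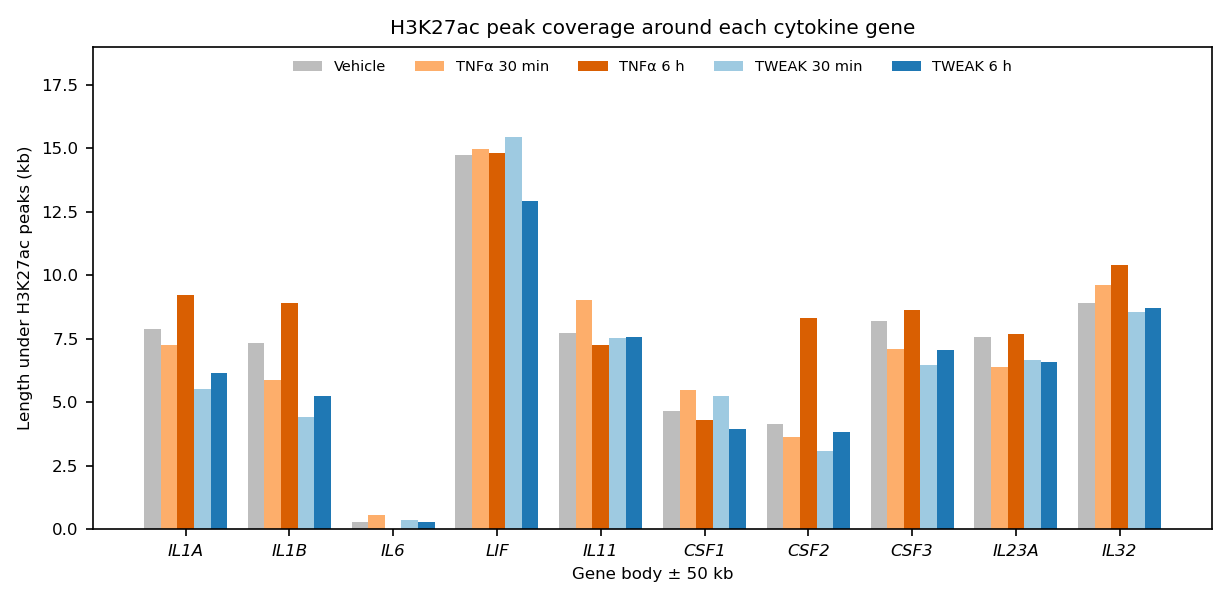
Length under H3K27ac peaks (kb) in the gene body ± 50 kb of each cytokine gene for vehicle and the 4 treatments, 1 merged list each. LIF has the most in every list, with 12.9 to 15.4 kb, IL6 has at most 545 bp, and CSF2 is higher at 6 h of TNFα than in its other 4 lists.

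Other ligand genes gave the context. Of 46 further cytokine genes, 20 had a RELA peak after 30 min of TNFα (43.5%, background 48.1%) and 12 after 6 h (26.1%, background 26.8%). Both shares were near that of all genes. A RELB peak after 6 h of TWEAK was at 3 of the 46 (6.52%, background 13.6%). The 3 were EBI3, OSM and CNTF, of which OSM shares part of the LIF window. Of 13 receptor genes of the 10 cytokines, 6 had a RELA peak at 30 min of TNFα (46.2%), near the background of 48.1%. A RELB peak at 6 h of TWEAK was at 3 of the 13 (23.1%, background 13.6%), a small count that is only a description. These 3 were IL6ST, which encodes gp130, IL1RAP, the accessory chain of the IL-1 receptor, and IL12RB1, a chain of the interleukin 23 receptor. At IL6ST, RELA was called in all 5 lists, from 7.33 at 6 h of TWEAK to 18.8 at 30 min of TNFα, and RELB at 4.49 in vehicle and 12.1 after 6 h of TWEAK. In these 7 lists IL6 had no peak within 50 kb.

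The lists held 2791 to 11266 RELA regions, 2414 to 4101 RELB regions, 53895 to 61194 H3K27ac regions and 58864 FOSL1 regions, and read depth is unknown from the files. The labelled cell type was checked by H3K27ac in vehicle within 500 bp of the start sites of marker genes. All 5 epithelial markers had a peak, as did 0 of 5 leukocyte markers (PTPRC, CD3E, CD79A, LYZ and CD14) and 1 of 5 fibroblast markers, COL3A1.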

How the data were processed

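ChIP-seq peak lists of L3.6pl cells were used as deposited, 11 narrow (RELA, RELB, FOSL1) and 5 broad (H3K27ac). Reads had been aligned by the authors with Bowtie2 2.5.0 (hg38). Peaks were called with MACS2 without a shifting model, at a stated cutoff of 0.05, against input. The deposited fold enrichment is the authors' ratio of ChIP over input at the summit, or averaged over a broad peak. The deposited −log10 q-value is the authors' significance and served only as a filter in an alternative. The deposited score and −log10 p-value columns were not used. The MACS2 version and the treatment of multiply mapped reads are not given in the sources used here.

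The peaks of chromosomes 1 to 22, X and Y were assigned to GENCODE 44 genes ± 50 kb with Python 3.11.15, pandas 2.3.3 and pysam 0.24.0. RELA and RELB peaks sharing at least 1 bp formed a site, which bears the name of the member whose canonical start site is nearest. A percentile is the rank of a fold enrichment within its own list. A region was placed in a tandem repeat when the 1000 bp around its summit matched themselves by 0.4 or more at a shift of 1 to 400 bp. Motifs were searched on both strands in the 200 bp around a summit, and overlapping matches counted. The functions for overlaps, tandem repeats and motifs were tested on simulated data, with planted matches for the κB consensus alone. Named sites were the strongest per member, those called in vehicle and those within 1000 bp of a start site, and the remaining sites are given for completeness. The members, lists and rules were chosen with earlier results of these data known. The split by strength and by the number of lists was made after the data had been seen. There is no replicate error and no test.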

Additional observations from a re-analysis of the deposited data

How the results depend on the processing

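Of 69 recomputed values (8 results, 14 settings), 59 stayed within 1.5 times the value reported or within its interval, and 10 moved. Every count of genes with a RELA or RELB region was among the 59, but the lowest of them lay at that limit. Genes with RELA after 30 min of TNFα, 9 as reported, were 6 among the 2000 strongest peaks. Genes with RELB after 6 h of TWEAK, 6 as reported, were 4 with windows of 10 kb. The number of RELA regions of 30 min of TNFα, 27 as reported, was 11 with windows of 10 kb, 17 at a fold enrichment of at least 5, 8 among the 2000 strongest peaks and 16 when the nearest start site had to be that of the member. Regions gaining H3K27ac, 4 as reported, were 2 with windows of 10 kb, 7 with windows of 100 kb and 2 among the 2000 strongest peaks. The share called again at 6 h was 75.0% among the 2000 strongest peaks, and the share with FOSL1 was 22.2% with the 20000 strongest FOSL1 peaks alone. Requiring H3K27ac to overlap the region itself gave 1 lost region in place of 0. Each of these settings keeps fewer peaks or other lengths of sequence by construction. With windows of 100 kb all 10 genes had a RELA region, IL6 included, without a share of all genes for that window to set beside it. No paired analysis was possible because each condition has 1 list of merged replicates, and for the same reason no replicate could be left out. Depth is unknown, so a peak that was not called may have been missed.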
